A study of Bos indicus with 55 samples.

Results

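The miR-99, miR-100 and miR-125 families are represented by 5 mature microRNAs (miRNAs, short RNAs that guide silencing proteins to messenger RNAs) in the extracellular vesicles (EVs) shed by cattle conceptuses: bta-miR-99a-5p, bta-miR-99b, bta-miR-100, bta-miR-125a and bta-miR-125b. They were chosen by name, as the entries of these families among 1024 bovine miRNAs in the EV count table, of which 655 had a count and 240 were abundant enough to be tested. All 5 were among the 240. A conceptus is the embryo with its membranes, recovered here on day 16 of pregnancy and kept in culture for 6 h while its vesicles collected in the medium.

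The EV libraries came from 6 conceptuses conceived in vivo after artificial insemination (3 female, 3 male), 10 made by in vitro fertilisation, IVF (7 female, 3 male), and 12 cloned by nuclear transfer (5 female, 7 male), where an egg receives the nucleus of a donor cell in place of its own. Each library is from a different animal, and no group carries a transgene or drug in the labels. Neither the donor cells used for cloning nor the make-up of the culture medium is given here by the sources. The sample labels name Bos indicus as the organism, whereas the conceptuses are Bos taurus taurus according to the design text. The series title concerns how the uterine lining responds to different conceptuses and the contribution of EV miRNAs to that response.

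miR-99 and miR-100 share their seed, the stretch near the 5′ end that pairs with targets, and miR-125a and miR-125b share another, being the vertebrate relatives of the worm developmental timer lin-4. In mammals the families lie together in 3 gene clusters, in which miR-99a stands with let-7c and a copy of miR-125b, miR-100 with let-7a and another copy of miR-125b, and miR-99b with let-7e and miR-125a. let-7 is a broad differentiation regulator, and the miR-10 family is a relative in sequence of miR-99 and miR-100. miR-99 and miR-100 are known for targeting the growth kinase mTOR, and miR-125 for targeting LIN28, which blocks the maturation of let-7. Because members of a family differ by few bases, reads could be assigned to the wrong relative where counting allowed mismatches. No more than full sharing was checked: 0 other entries had the same counts as a member in every library. That check cannot detect reads misassigned in part.

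EV library totals ran from 39263 to 603579 counts, with a median of 120728. The entries miR-2887 and miR-2904 alone took 4.11 to 37.1% of the counts in vivo (median 21.1%), with 8.80 to 76.3% for IVF (55.3%) and 5.17 to 59.4% after nuclear transfer (41.4%). In vivo male replicate 3 (400928 counts) and nuclear transfer female replicate 3 (603579 counts) were the deepest, and IVF male replicate 3 (41396 counts) was among the shallowest. The vesicles carried RNA found in epithelia, with 6 of 6 listed epithelial miRNAs counted and a summed level of 5862 to 103127 CPM (counts per 1e+06, scaled by TMM). Of the lists for other sources, the 7 blood miRNAs summed to 235 to 9030 CPM, the 6 mesenchymal to 1299 to 12247 CPM, the 3 muscle miRNAs to 11.3 to 16897 CPM, the liver and serum miRNA miR-122 reached 111 to 25593 CPM, and the 6 early embryo miRNAs summed to 15.1 to 12460 CPM. No listed marker was at 0 in the pooled libraries, but some were close to it. miR-367 (early embryo) had 1 pooled count, miR-144 (blood) 7 and miR-205 (epithelial) 41. In vesicles a lower level can come from fewer contributing cells or from less of the miRNA per cell or vesicle, and the counts cannot tell these apart.

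All 5 members were counted in each of the 28 libraries. The smallest count of a member in a library was 7, for bta-miR-125a, and the largest was 2423, for the same miRNA. By mean CPM over all libraries, bta-miR-100 ranked 26 of the 240 tested entries, bta-miR-99a-5p 32, bta-miR-125b 49, bta-miR-125a 54 and bta-miR-99b 56. Mature miRNAs are of near equal length, so these levels were compared without scaling by length. Unequal capture of different miRNAs in the libraries was not tested, so the ranks are ranks of counts. bta-miR-100 was the most abundant of the 5 in 18 of 28 libraries and bta-miR-99a-5p in 8. bta-miR-99b and bta-miR-125a led in 1 each. The opposite strand of the miR-99a hairpin, bta-miR-99a-3p, had 0 of 4025649 pooled counts, which allows a level of up to 0.745 CPM of the pooled counts, a limit that covers counting error only.

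Together the 5 members took 1.72 to 4.46% of the counts in vivo (median 2.58%), with 0.347 to 4.69% for IVF (0.948%) and 0.325 to 3.55% after nuclear transfer (0.900%). The share lay below the lowest in vivo library in 7 of 10 IVF and 11 of 12 nuclear transfer libraries. Each share is of all counts, those of miR-2887 and miR-2904 included. These entries had higher median shares in IVF and nuclear transfer, and their part in this result was not tested. CPM values below are scaled by TMM. Libraries below the in vivo range were counted for the members alone, so no share over all tested miRNAs stands beside those counts.

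**Figure D1:**
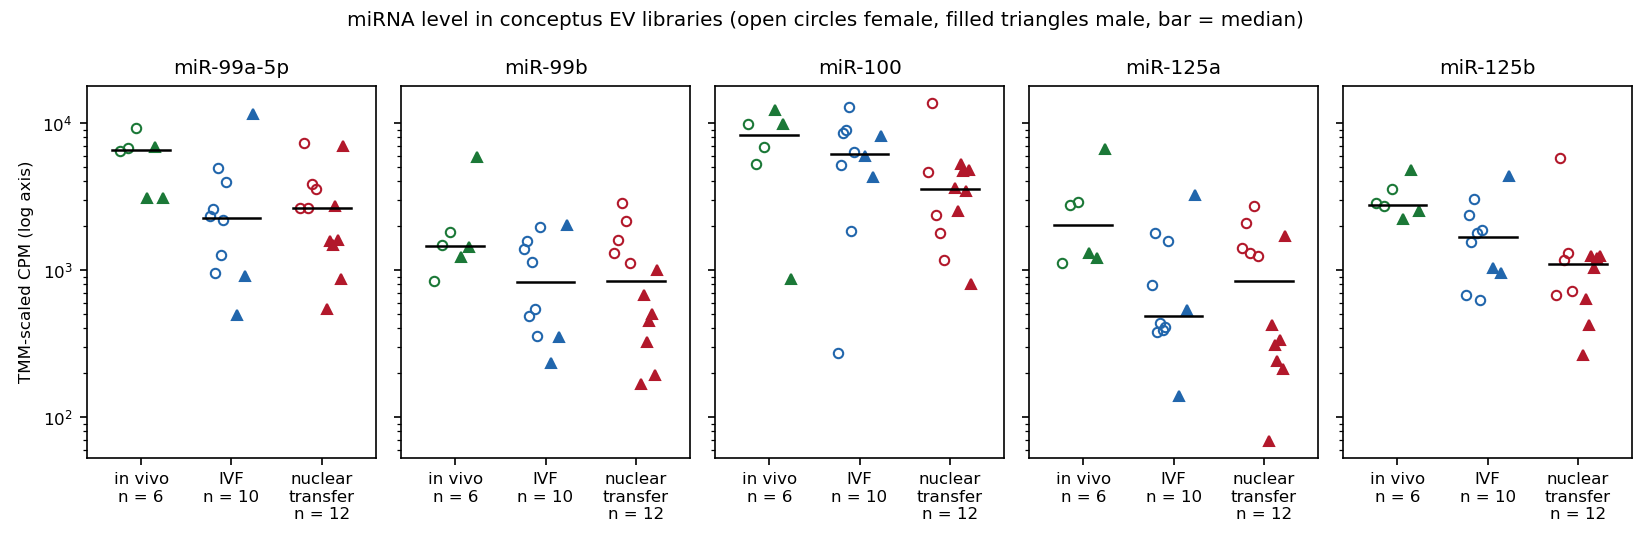
TMM-scaled CPM of each miRNA (log axis) in every EV library by conceptus type, with open circles for female, filled triangles for male conceptuses and bars at the medians. In 11 of 12 nuclear transfer libraries bta-miR-125b lies below the lowest in vivo library, whereas bta-miR-100 overlaps between types over nearly its whole range.

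In the miR-99 and miR-100 family, bta-miR-99a-5p ran from 3108 CPM in vivo through a median of 6587 to 9237 (mean 5910 ± 2391, SD, n = 6). In IVF it ran from 492 CPM (median 2255) to 11554 (3116 ± 3282, n = 10), and in nuclear transfer from 541 CPM (median 2659) to 7279 (2978 ± 2183, n = 12). The types overlap, but 7 of 10 IVF and 8 of 12 nuclear transfer libraries fall below every in vivo library. The 11554 CPM of IVF male replicate 3 was the highest of all 28 libraries, while the other IVF males had 492 and 909 CPM.

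bta-miR-99b, the member whose gene sits beside let-7e and miR-125a, ran from 839 CPM (median 1463) to 5857 in vivo (2108 ± 1864, n = 6). Its range was 232 CPM (median 834) to 2036 in IVF (1004 ± 698, n = 10) and 167 CPM (median 840) to 2844 in nuclear transfer (1027 ± 832, n = 12). Below the lowest in vivo library lay 5 of 10 IVF and 6 of 12 nuclear transfer libraries. The in vivo maximum belongs to in vivo male replicate 3, and the other in vivo libraries ended at 1801 CPM.

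bta-miR-100 ran from 869 CPM (median 8342) to 12234 in vivo (7477 ± 4060, n = 6). In IVF it ran from 273 CPM (median 6168) to 12770 (6231 ± 3634, n = 10), and in nuclear transfer from 801 CPM (median 3540) to 13693 (4070 ± 3375, n = 12). The ranges overlap almost fully, with 1 library of each laboratory-made type below the lowest in vivo library. That in vivo minimum was again in vivo male replicate 3, the library with the highest bta-miR-99b and bta-miR-125a. The library with the lowest bta-miR-100 of each type carried more bta-miR-99a-5p than bta-miR-100. In vivo male replicate 3 had 869 CPM of bta-miR-100 and 3108 of bta-miR-99a-5p, IVF female replicate 1 had 273 and 2338 CPM, and nuclear transfer male replicate 7 had 801 and 6988 CPM.

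In the miR-125 family, bta-miR-125a ran from 1111 CPM (median 2031) to 6688 in vivo (2657 ± 2128, n = 6). Its IVF values were 139 CPM (median 484) to 3213 (965 ± 959, n = 10), and its nuclear transfer values 68.9 CPM (median 836) to 2731 (1005 ± 869, n = 12). Of the IVF libraries 7 of 10, and of the nuclear transfer libraries 6 of 12, were below all in vivo libraries. The lowest nuclear transfer value rests on 7 counts, so its own counting error is large.

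bta-miR-125b, encoded at both the miR-99a and the miR-100 cluster, had the narrowest in vivo spread of the 5. It ran from 2220 CPM (median 2780) to 4753 in vivo (3100 ± 927, n = 6), from 626 CPM (median 1673) to 4329 in IVF (1820 ± 1166, n = 10) and from 266 CPM (median 1105) to 5808 in nuclear transfer (1312 ± 1460, n = 12). Nuclear transfer female replicate 2, at 5808 CPM, was the only nuclear transfer library within or above the in vivo range. Among IVF libraries 7 of 10 lay below it.

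Between IVF and in vivo conceptuses, all 5 members had lower fitted levels in IVF, and none of them passed the threshold of an adjusted p of 0.05. The fit was edgeR's quasi-likelihood test over 240 miRNAs with Benjamini-Hochberg adjustment, with the difference taken in each sex and averaged over both. The log2 difference, IVF minus in vivo, was -1.35 (SE 0.63, adjusted p = 0.271) for bta-miR-125a and -1.04 (SE 0.52, adjusted p = 0.297) for bta-miR-99b by edgeR. It was -0.77 for bta-miR-99a-5p, -0.71 for bta-miR-125b and -0.27 for bta-miR-100, with edgeR adjusted p-values of 0.514, 0.498 and 0.861. In this comparison 0% of tested miRNAs passed the adjusted threshold, 16.2% had an unadjusted p under 0.05, as 1 of the 5 members did (bta-miR-125a), and 48.3% had a negative difference. The median difference was -0.77 over the members and 0.01 over all tested miRNAs. DESeq2 called 0 members among 13 of 240 miRNAs, and limma voom with quality weights called 3 among 22 of 240. The summed early embryo list had medians of 586 CPM in vivo, 3949 in IVF and 1079 in nuclear transfer, and the blood list 725, 1317 and 3173 CPM, with overlapping ranges. Their part in the type differences was not tested.

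By edgeR, the IVF calls depended on a single library, picked out of 28 fits that each left 1 library out. They depended on the method too, since limma voom with quality weights called 3 members with every library kept. Without IVF male replicate 3, which has the highest bta-miR-99a-5p, bta-miR-99b, bta-miR-125a and bta-miR-125b of the IVF group, 3 members were lower in IVF by edgeR. The log2 differences were then -2.18 for bta-miR-99a-5p (adjusted p = 0.0267), -1.88 for bta-miR-99b (adjusted p = 0.0351) and -2.36 for bta-miR-125a (adjusted p = 0.0351). bta-miR-125b stood at -1.32 (adjusted p = 0.118) and bta-miR-100 at -0.45 (adjusted p = 0.649). Over all tested miRNAs the count of calls went from 0 of 240 to 21 of 254 with that library left out. It also held the lowest share of miR-2887 and miR-2904 of the IVF group, 8.80%, and the lowest IVF total, and the part of either was not tested. In vivo male replicate 3 moved the members in both directions. Without it bta-miR-99b differed by only -0.56 (adjusted p = 0.682) and bta-miR-125a by -0.75 (adjusted p = 0.665), while bta-miR-99a-5p stood at -0.99, bta-miR-125b at -0.92 and bta-miR-100 at -0.64, with 0 members and 0 of all tested miRNAs called by edgeR.

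**Figure D2:**
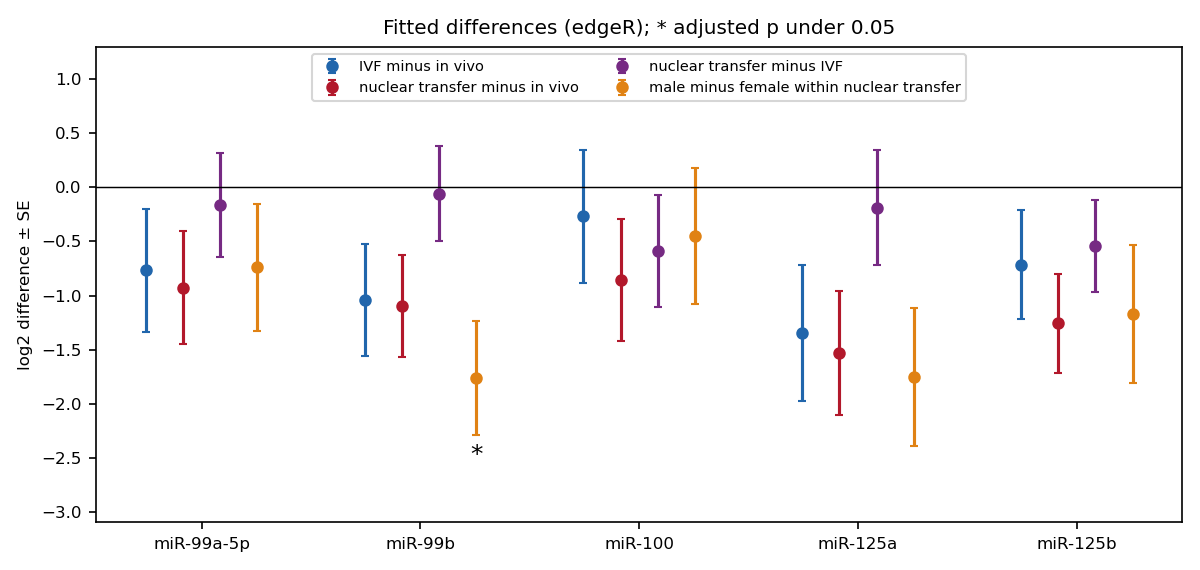
Fitted log2 differences with standard errors for the 5 miRNAs in the 3 comparisons of conceptus type (6 in vivo, 10 IVF and 12 nuclear transfer libraries) and between male and female nuclear transfer conceptuses. The star marks bta-miR-99b between male and female nuclear transfer conceptuses (-1.76), the 1 difference shown with an adjusted p under 0.05 by edgeR.

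Between nuclear transfer and in vivo conceptuses, the members were again lower in 5 of 5 cases and again none passed the adjusted threshold. The log2 difference, nuclear transfer minus in vivo, was -1.53 (SE 0.57, adjusted p = 0.278 by edgeR) for bta-miR-125a, -1.26 (SE 0.46, adjusted p = 0.278) for bta-miR-125b and -1.10 (SE 0.47, adjusted p = 0.377) for bta-miR-99b. These 3 members had an unadjusted edgeR p under 0.05, namely 0.0126, 0.0107 and 0.0283. bta-miR-99a-5p differed by -0.93 and bta-miR-100 by -0.86, with edgeR adjusted p-values of 0.417 and 0.460. Of all tested miRNAs 0.417% passed the adjusted threshold, 11.2% had an unadjusted p under 0.05 and 44.6% were negative. The median was -1.10 over the members and 0.15 over all tested miRNAs. DESeq2 and limma voom called 0 members and 0 of 240 miRNAs. With the share of miR-2887 and miR-2904 as covariate, edgeR called 0 members in either comparison with in vivo, as it did without the covariate. Over all miRNAs it then called 0 of 240 for IVF and 1 of 240 for nuclear transfer. With both entries left out of the counts, 0 members were called, among 0 of 229 and 1 of 229 miRNAs.

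Here nuclear transfer female replicate 2 was the 1 library, of 28 left out in turn, without which a member was called. With that library left out, bta-miR-125b was lower in nuclear transfer, with a log2 difference of -1.94 (adjusted p = 0.0222 by edgeR), and it was the 1 member called, among 3 of 236 tested miRNAs. The same library has the highest bta-miR-100 and bta-miR-125b of all 28, at 13693 and 5808 CPM. With in vivo male replicate 3 left out instead, bta-miR-125b differed by -1.42 (adjusted p = 0.202) and bta-miR-125a by -0.998 (adjusted p = 0.430). In a fit of females alone the difference of bta-miR-99b was 0.37, of the opposite sign.

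**Figure D3:**
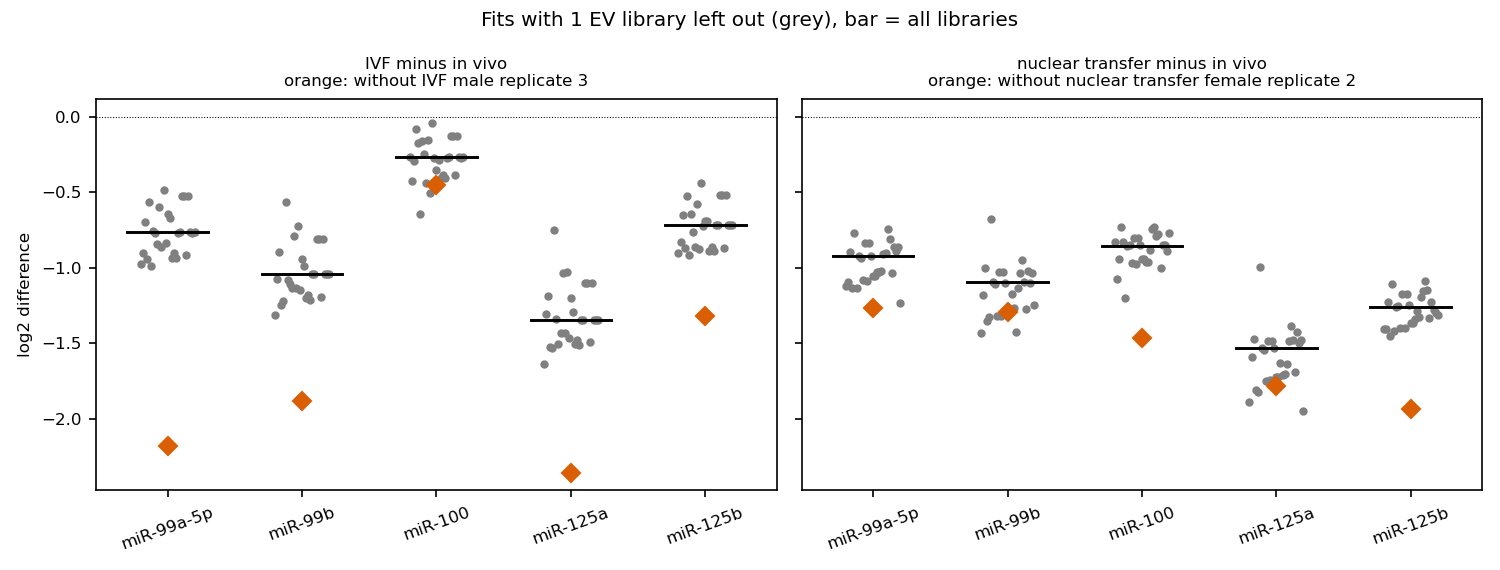
Log2 differences of IVF (left) and nuclear transfer (right) from in vivo conceptuses with all 28 libraries (bars) and with 1 library left out at a time (grey points), with the library named above each panel in orange. Without IVF male replicate 3, bta-miR-99a-5p moves from -0.77 to -2.18, and without nuclear transfer female replicate 2, bta-miR-125b moves from -1.26 to -1.94.

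No member differed between nuclear transfer and IVF conceptuses beyond the spread of the libraries. The log2 difference, nuclear transfer minus IVF, was -0.59 (SE 0.52, adjusted p = 0.694 by edgeR) for bta-miR-100 and -0.54 (SE 0.42, adjusted p = 0.684) for bta-miR-125b. For bta-miR-125a it was -0.19, for bta-miR-99a-5p -0.16 and for bta-miR-99b -0.06, with adjusted p-values of 0.957 to 0.977 by edgeR. No member had an unadjusted p under 0.05, against 10% of all tested miRNAs, while 1.25% passed the adjusted threshold and 46.2% were negative. The standard errors of 0.42 to 0.53 are as large as most of these differences, and the signs of bta-miR-99a-5p, bta-miR-99b and bta-miR-125a turned positive under several other settings. DESeq2 and limma voom also called 0 members. These 3 comparisons share their groups in pairs, so their signs are not independent of each other.

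Over all types, male and female conceptuses did not differ beyond the spread for any member. The log2 difference, male minus female, ran from -0.39 for bta-miR-99b to -0.12 for bta-miR-100, with edgeR adjusted p-values of 0.793 to 0.977, and 0 members had an unadjusted p under 0.05. Among all tested miRNAs 0% passed the adjusted and 3.75% the unadjusted threshold. Whether the type differences depend on sex was tested as an interaction, in which 0% passed the adjusted threshold and 14.6% had an unadjusted p under 0.05. Of the members, bta-miR-99b (unadjusted p = 0.0157, adjusted p = 0.315 by edgeR) and bta-miR-125a (unadjusted p = 0.0410, adjusted p = 0.323 by edgeR) were among the latter. DESeq2 and limma voom called 0 members in both tests.

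Within nuclear transfer, bta-miR-99b was lower in male than in female conceptuses. A clone takes its sex from its donor cell, so male and female clones come from different donor cells. Sex and donor cell therefore cannot be told apart in this comparison. The 5 females had 1296, 1607, 2844, 2139 and 1121 CPM (1801 ± 700), and the 7 males ran from 167 CPM (median 447) to 1005 (473 ± 294). No male reached the lowest female. Of the related miRNAs listed below, let-7a-5p alone also did not overlap, with 47592 CPM in the lowest female and 47323 in the highest male. How many of the 180 tested miRNAs separate the sexes in this way, fully or nearly, was not counted. The log2 difference, male minus female, was -1.76 (SE 0.53, adjusted p = 0.0271 by edgeR in a fit of the 12 libraries alone). Of the 180 miRNAs tested in that fit, 22.2% passed the adjusted threshold and 8.89% passed it with lower levels in males.

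bta-miR-125a, its cluster partner, had 1417, 2076, 1298, 2731 and 1249 CPM in the 5 females and 68.9 CPM (median 309) to 1703 in the 7 males. Of the males 6 of 7 lay below every female, the exception being male replicate 7 at 1703 CPM. Its log2 difference of -1.76 (SE 0.64) had an adjusted p of 0.0571 by edgeR and did not pass, although DESeq2 (adjusted p = 0.0279) and limma voom (adjusted p = 0.00598) called it. Over all miRNAs DESeq2 called 52 of 180 and limma voom 47 of 180. bta-miR-125b differed by -1.17, bta-miR-99a-5p by -0.74 and bta-miR-100 by -0.45, with edgeR adjusted p-values of 0.182, 0.376 and 0.634.

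Of all miRNAs in this comparison, 36.7% had an unadjusted p under 0.05 and 48.9% were negative. Of the members, 1 of 5 passed the adjusted threshold, 2 of 5 had an unadjusted p under 0.05 and 5 of 5 were negative, with a median of -1.17 against 0.05 over all tested. Of the 5 related miRNAs (let-7c, let-7a-5p, let-7e, miR-10a and miR-10b), 3 were lower in males by edgeR. let-7e, encoded beside miR-99b, differed by -1.58 (adjusted p = 0.0372), let-7a-5p by -1.84 (adjusted p = 0.0201) and miR-10a by -2.40 (adjusted p = 0.0128). let-7c stood at -1.38 (adjusted p = 0.118) and miR-10b at 0.19 (adjusted p = 0.856). In the 3 comparisons of type, 0 of these 5 passed the adjusted and 0 the unadjusted threshold by edgeR.

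Several properties of the libraries moved with sex in this group. The share of miR-2887 and miR-2904 was 5.17 to 44.5% in females (median 24.4%) and 30.3 to 59.4% in males (44.6%). With that share as a covariate, bta-miR-99b stood at -1.09 (adjusted p = 0.544) and 0 members were called, nor were let-7a-5p (-0.91, adjusted p = 0.4998), let-7e (-0.98, adjusted p = 0.544) or miR-10a (-1.57, adjusted p = 0.226). Of all miRNAs 1 of 180 was called with the covariate. The epithelial list summed to 16375 to 103127 CPM in females and 6840 to 32317 CPM in males. The early embryo list summed to 141 to 1088 CPM in females and 423 to 7784 CPM in males. In the pooled libraries 6 of 6 members of each list had a count, but miR-367 of the early embryo list had only 1. The part of these lists in the result was not tested. Without nuclear transfer female replicate 3 the related miRNA called was miR-10a alone (-2.19, adjusted p = 0.0425 by edgeR). The difference of bta-miR-99b was then -1.54 (adjusted p = 0.0681), and its call was also lost without male replicate 1, 3, 4 or 5, with adjusted p-values of 0.0514 to 0.0613.

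Across the 28 libraries the members fell into unlike patterns, described here by Spearman's rho of log2 CPM, which libraries of unequal depth and shared scaling can move. bta-miR-99b and bta-miR-125a, from 1 cluster, had the highest rho among the members, 0.90. Each also tracked let-7e of that cluster, at 0.90 and 0.82, but not more closely than let-7c of the miR-99a cluster, at 0.90 and 0.91. With let-7a-5p the values were 0.85 for bta-miR-99b and 0.82 for bta-miR-125a. bta-miR-125a had 0.82 with miR-10a and 0.26 with miR-10b. High rho values with let-7e were therefore not particular to the shared cluster. bta-miR-99a-5p had rho values of 0.78 with bta-miR-125a, 0.72 with bta-miR-125b and 0.71 with bta-miR-99b, and 0.77 with let-7c, its cluster neighbour. bta-miR-100 stood apart, at 0.00 with bta-miR-99b, -0.00 with bta-miR-125a, 0.23 with bta-miR-99a-5p and 0.63 with bta-miR-125b. With let-7a-5p, of which a copy lies in its own cluster, its rho was -0.34, and let-7a has further copies in the genome. In the miR-10 family, bta-miR-99b had 0.86 with miR-10a and 0.10 with miR-10b, and bta-miR-100 had -0.35 and 0.58.

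**Figure D4:**
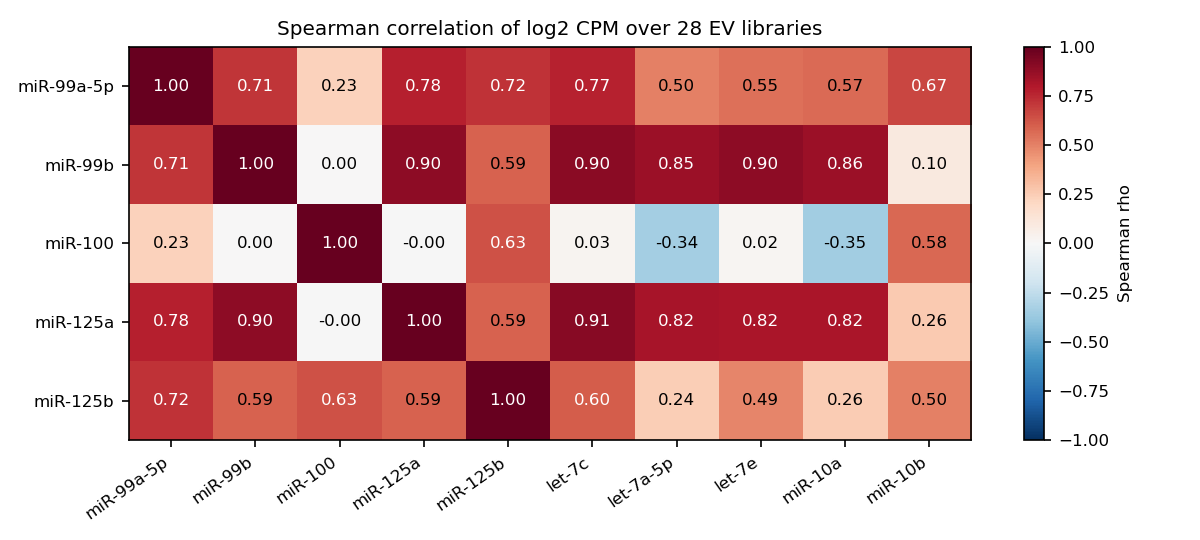
Spearman's rho of log2 CPM over 28 EV libraries between the 5 miRNAs (rows) and themselves, let-7 and miR-10 miRNAs (columns), with red for positive and blue for negative values. The row of bta-miR-100 differs from the rest, with 0.00 for bta-miR-99b and 0.63 for bta-miR-125b.

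Among the tested entries other than the 5 members, the 3 with the highest rho to bta-miR-99a-5p were let-7c (0.77), miR-128 (0.76) and miR-423-5p (0.74). For bta-miR-99b they were let-7b and miR-3596, which have identical counts (0.92), and let-7c (0.90). For bta-miR-125a they were let-7c, let-7b and miR-3596 (0.91 each). bta-miR-100 was instead most like miR-127, an imprinted miRNA (0.78), miR-126-3p, an endothelial miRNA (0.72), and miR-9, a neural miRNA (0.72). For bta-miR-125b they were miR-184 (0.62), let-7c (0.60) and miR-124b (0.60), all below its rho with bta-miR-99a-5p (0.72) and bta-miR-100 (0.63).

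Ratios of 2 miRNAs within a library do not depend on scaling or on miR-2887 and miR-2904. The ratio of bta-miR-125a to bta-miR-99b ran from 0.393 to 1.85 over the 28 libraries and that of bta-miR-99b to let-7e from 0.973 to 4.01. By contrast, bta-miR-100 to bta-miR-99a-5p, which share a seed but come from different clusters, ran from 0.115 to 12.1. bta-miR-125b to bta-miR-100, which share a cluster, ran from 0.0748 to 2.87, bta-miR-125a to bta-miR-125b from 0.139 to 2.67, bta-miR-99b to bta-miR-99a-5p from 0.131 to 1.88 and bta-miR-99a-5p to let-7c from 0.543 to 5.89.

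None of the 7 ratios differed between types, with 0 of 21 tests past the adjusted threshold and 0 with an unadjusted p under 0.05 in permutation tests. The smallest p belonged to bta-miR-125a to bta-miR-99b, whose log2 ratio was 0.33 ± 0.41 (SD, n = 6) in vivo, -0.24 ± 0.64 (n = 10) in IVF and -0.22 ± 0.65 (n = 12) in nuclear transfer. The difference from in vivo was -0.57 for IVF (exact permutation p = 0.0772, two-sided, adjusted 0.718) and -0.56 for nuclear transfer (exact permutation p = 0.0775, two-sided, adjusted 0.718). bta-miR-100 to bta-miR-99a-5p differed by 1.02 between IVF and in vivo (exact permutation p = 0.293, adjusted 0.770), with an SD of 2.08 in the IVF group.

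**Figure D5:**
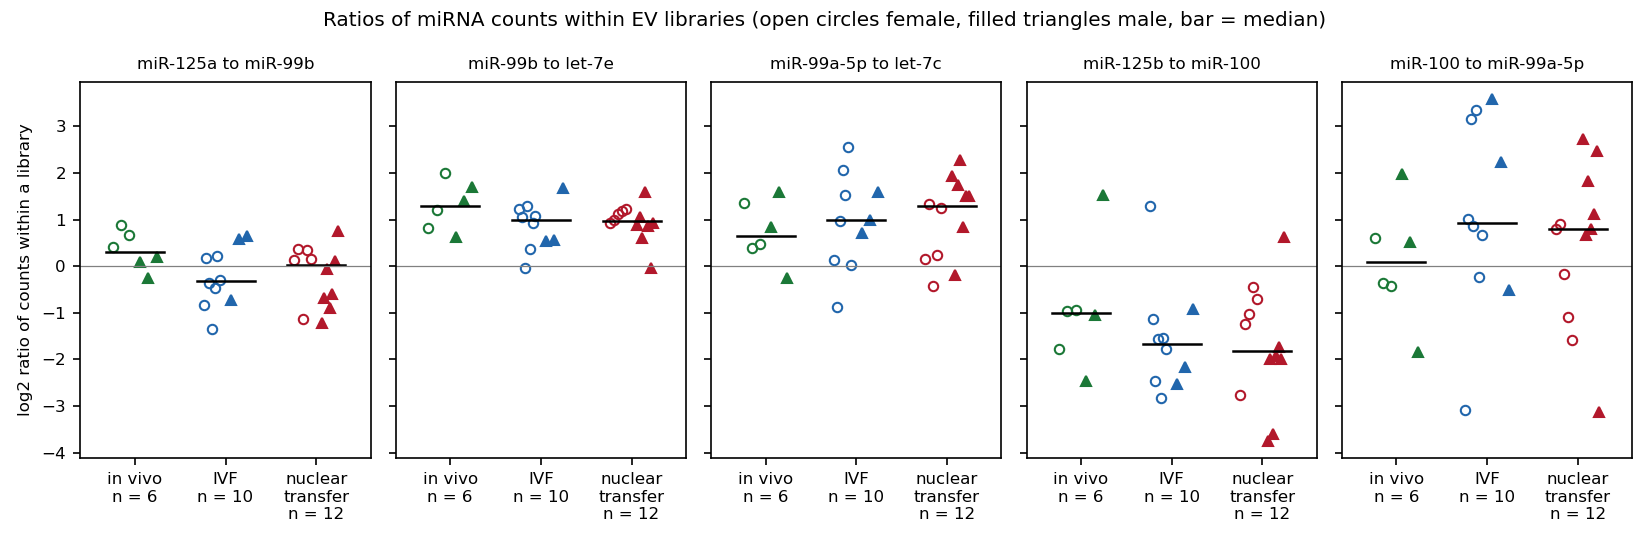
Log2 ratios of counts of 2 miRNAs within each EV library by conceptus type, with open circles for female, filled triangles for male conceptuses and bars at the medians. The ratio of bta-miR-99b to let-7e stays between 0.973 and 4.01 on the linear scale, and that of bta-miR-100 to bta-miR-99a-5p spreads from 0.115 to 12.1.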

How the data were processed

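Per the labels' protocols, EV RNA was isolated on miRNeasy Micro columns with DNase, made into NUGEN Ovation SoLo libraries and selected for short inserts. The submitters' processing notes list ARS-UCD1.2, cutadapt, STAR, Bowtie, featureCounts and DESeq2. Neither versions nor roles are given in these sources. The authors deposited whole read counts per miRNA, not normalized; all 28 columns were used. Endometrial poly(A) libraries were not used here.

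Groups are conceptus type by sex from the sample titles. Counts were tested with edgeR 4.0.16 (TMM, filterByExpr with minimum count 10 and total 15, quasi-likelihood F test, two-sided, Benjamini-Hochberg over all tested miRNAs, threshold 0.05) in 1 fit of 6 group means, with a separate fit of the 12 nuclear transfer libraries. The code was tested on simulated data. Within-library ratios added 0.5 to each count and used exact permutation tests against in vivo and 100000 permutations between IVF and nuclear transfer, adjusted over 21 tests. Alternatives used DESeq2 1.42.0 and limma 3.58.1. Replicate numbers were not used to pair libraries: 53 same-numbered pairs across the 6 groups of type and sex had correlations of -0.63 to 0.69 (median 0.01), with 20 over 0.1.

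The members and lists were chosen with earlier results of these data known. Named miRNAs are the members, their other arms, their let-7 and miR-10 relatives, the 3 tested entries with the highest rho to each member, and miR-2887 and miR-2904.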

Additional observations from a re-analysis of the deposited data

Results flagged for a closer look

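1 of 15 sets of values (5 miRNAs in 3 groups of 5 to 7 libraries) held a library far from the others on the log2 scale, where chance flags about 1 in 20. bta-miR-100 in nuclear transfer male replicate 7 was 801 CPM, and the gap to the next library on the log2 CPM scale was 0.610 of the range of the 7 males, above the limit of Dixon's test. On the linear CPM scale this gap was 0.389 of the range, under the limit. On that scale nuclear transfer female replicate 2 stood apart instead, with the highest bta-miR-99a-5p, bta-miR-100 and bta-miR-125b (gaps of 0.750, 0.725 and 0.876), as did male replicate 7 with the highest bta-miR-99a-5p and bta-miR-125a (0.660 and 0.783). The same library had the highest bta-miR-99a-5p (6988 CPM), bta-miR-99b (1005 CPM) and bta-miR-125a (1703 CPM) of these males.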

How the results depend on the processing

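Members called between IVF and in vivo were 0, and 3 under limma voom: bta-miR-99a-5p (-2.05), bta-miR-99b (-1.52) and bta-miR-125a (-1.995). With 1 library left out the count was 0 to 3 there, and 0 to 1 between nuclear transfer and in vivo. Within nuclear transfer, 1 member was called between the sexes, among 40 of 180 miRNAs. The count was 2 under DESeq2 (52 of 180), limma voom (47 of 180), no low count filter (63 of 580) or the replicate block (41 of 180). It was 0 with the miR-2887 and miR-2904 share as covariate (1 of 180). Without the 3 libraries of over 200000 counts (chosen after seeing the data) it was also 0 (16 of 190). In this fit that setting removes nuclear transfer female replicate 3 alone, so it repeats the fit without that library. With 1 library left out the count was 0 to 2. The replicate block is no pairing by design.

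Signs turned as follows. bta-miR-100 was 1.31 (IVF minus in vivo) and 0.18 (nuclear transfer minus in vivo) in libraries of at least 100000 counts, which leave 1 in vivo library of each sex. bta-miR-99b was 0.37 (nuclear transfer minus in vivo) in females alone. For nuclear transfer minus IVF, bta-miR-99a-5p, bta-miR-99b and bta-miR-125a were 0.82, 0.61 and 0.63 under voom, 0.067, 0.16 and 0.015 with no filter, 0.92, 0.85 and 0.73 at 100000 counts, 0.0071, 0.056 and 0.062 with type alone, and 0.63, 0.76 and 1.08 in females alone. bta-miR-99b was 0.10 with the replicate block and bta-miR-125b 0.20 in females alone. For male minus female, bta-miR-100 was 0.018 under DESeq2 and size factor scaling and 0.29 under voom. Within nuclear transfer it was 0.59 under voom, 0.78 at 100000 counts and 0.57 with the replicate block. The cause was not tested.

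With 1 library left out, nuclear transfer minus IVF ran from -0.47 to 1.15 (bta-miR-99a-5p), -0.35 to 0.71 (bta-miR-99b) and -0.60 to 0.73 (bta-miR-125a), male minus female from -0.27 to 0.22 (bta-miR-100) and -0.63 to 0.16 (bta-miR-125b), and bta-miR-100 within nuclear transfer from -0.85 to 0.36. Log2 ratios, nuclear transfer minus in vivo, ran from -0.42 to 0.26 (bta-miR-125a to bta-miR-125b), -0.21 to 0.55 (bta-miR-99b to bta-miR-99a-5p) and -0.017 to 0.74 (bta-miR-100 to bta-miR-99a-5p). Nuclear transfer minus IVF, they ran from -0.11 to 0.11 (bta-miR-125a to bta-miR-99b), -0.36 to 0.17 (bta-miR-125b to bta-miR-100), -0.16 to 0.22 (bta-miR-99a-5p to let-7c) and -0.023 to 0.17 (bta-miR-99b to let-7e). In each of these fits 0 of the 21 ratio tests passed the adjusted threshold.

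Calls over all miRNAs moved from 0 to 13 (DESeq2), 22 (voom) and 6 (no filter) for IVF against in vivo, from 1 to between 0 and 6 (6 with no filter or the replicate block) for nuclear transfer against in vivo, and from 3 to between 0 and 5 for nuclear transfer against IVF. Between the sexes of nuclear transfer conceptuses they moved from 40 to 63 (no filter), 16 (without nuclear transfer female replicate 3, the deepest library) and 1 (covariate). Size factor scaling shifted the median of all miRNAs by 0.12 (IVF minus in vivo) and 0.15 (male minus female). Low counts limit the rarer members in some libraries. bta-miR-125a rests on 7 counts in nuclear transfer male replicate 1. That library had 145339 counts in total, 59.4% of them from miR-2887 and miR-2904.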
